A study of Mus musculus with 3 samples.

Results

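Utf1, undifferentiated embryonic cell transcription factor 1, was mapped by ChIP-seq in KH2 cells, an established mouse embryonic stem cell line, and the regions described here are the tag-dense peaks of the biotin-tagged protein. They were chosen by 2 listed values, a length under 5000 bp and at least 150 tags per kb of peak, on chromosomes 1 to 19 without unplaced sequence. The rule gave 1622 peaks of 152608 in the list of the biotin-tagged protein, or 1.10% of the 147818 autosomal peaks under 5000 bp. The other 146196 autosomal peaks under 5000 bp served for comparison. The second list, from endogenous Utf1, held 10506 peaks, of which 9612 were autosomal, and played no part in the choice. The study's 3 samples are single libraries of biotin-tagged Utf1, endogenous Utf1 and a whole-cell extract, the last of which was not analysed here.

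All groups were KH2 cells in standard serum medium with LIF, fixed for 5 min in 1% formaldehyde. The protocol of the labels also describes irradiated CF1 mouse embryonic fibroblasts as feeders for maintenance. It does not say whether feeders were removed before fixation, nor how the tagged Utf1 was expressed. The biotin group differs from the endogenous group by its tag, and the protocol gives streptavidin beads for biotin precipitations, while the antibody field of both groups names the same Utf1 antibody. The list of the tagged protein is called the biotin list after its tag label. Biotin peaks held 14128799 tags and endogenous peaks 276084, and total library depth is unknown. No group has a replicate, so differences have no replicate check and no test, and the main shares carry an exact Clopper-Pearson interval at 95% and the main counts an exact Poisson interval, which cover counting error only.

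Utf1 is made in pluripotent cells, where it is bound tightly to chromatin. In mouse embryonic stem cells it is known to occupy many genes that carry both activating and repressive histone marks and to limit the loading of a Polycomb repressive complex there. In a biotin precipitation the tagged protein is pulled down through the binding of biotin to streptavidin, which withstands harsh washing, whereas the endogenous protein is pulled down with an antibody. A peak is a stretch where sequenced fragments, or tags, pile up, and its summit is the position of the highest pile.

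The tag-dense peaks were not narrow, so they are called tag-dense rather than sharp. Their median length was 2008 bp (interquartile range 1665 to 2448), against 1074 bp (848 to 1560) for the other peaks under 5000 bp, and fragments of 300 to 600 bp had been selected for sequencing. Only 17 of them, 1.05%, were shorter than 1000 bp, against 42.6% of the other peaks. They had a median of 336 tags (275 to 416), where the other peaks had 52 (33 to 102). These values chose the peaks and are given as a description. Together the tag-dense peaks covered 3.46 Mb, which is 1.66% of the sequence in autosomal biotin peaks, and held 4.27% of the tags.

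Most tag-dense peaks stood just over the limit. In 1528 of them, 94.2%, the density was under 200 tags per kb, 94 reached 200, 17 reached 300 and 6 reached 500. The 3 peaks nearest above the limit, on chromosomes 15, 18 and 4, had exactly 150 tags per kb, with folds of 13.8, 6.15 and 9.98. The 3 nearest below it, on chromosomes 7, 8 and 4, had 149.98, 149.98 and 149.97 tags per kb and folds of 8.81, 11.5 and 10.7. Within 5 tags per kb of the limit there were 397 peaks above and 497 below, so the limit cuts a continuous range and separates no distinct class.

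The listed fold, the authors' ratio of tags to background, was high for most tag-dense peaks and low for a few. A fold of 5, chosen after the values were seen, divides them here into a high-fold and a low-fold group. The line cuts a range, with 50 peaks under 5, 123 at 5 to 7 and 378 at 7 to 9. The median fold of all tag-dense peaks was 10.1 (8.34 to 11.9), against 4.14 (3.28 to 5.86) for the other peaks. A fold of 15 or more was listed for 105 tag-dense peaks and for 223 of the far more numerous other peaks, and a fold of 20 or more for 14 and 7. At the other end, 50 tag-dense peaks, 3.08%, had a fold under 5. No source used here says which background the fold was set against. The deposited strength was exactly 3100, a value that recurs near the top of the scale, for 27.0% of tag-dense peaks and 0.337% of the other peaks.

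**Figure D1:**
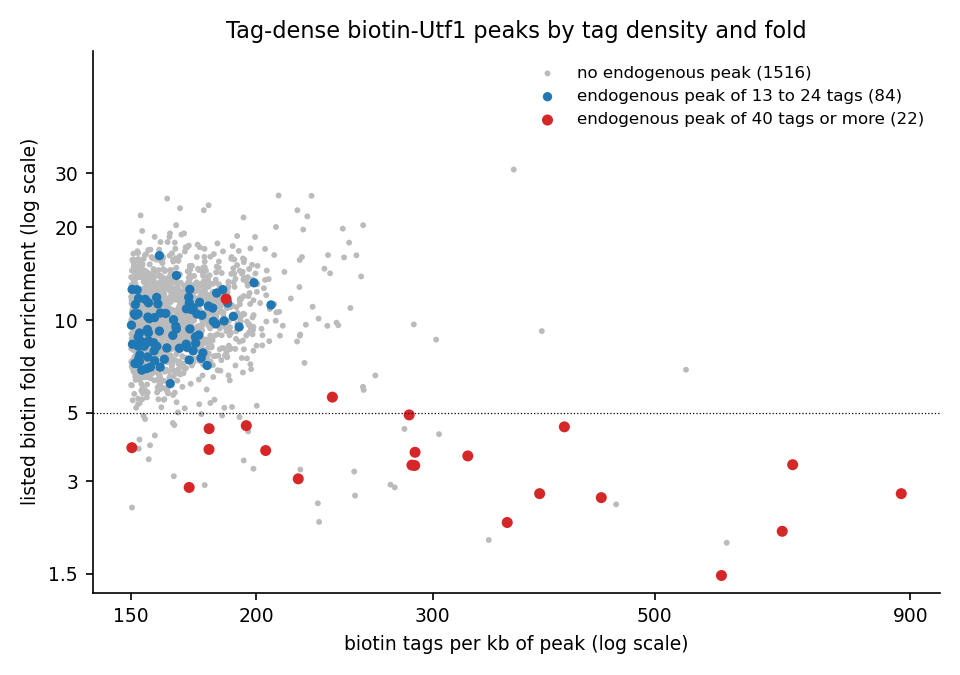
Each point is 1 of the 1622 tag-dense peaks, by biotin tags per kb (log scale) and listed biotin fold (log scale), coloured by the endogenous peak that overlaps it, and the dotted line marks a fold of 5. The 22 peaks with an endogenous partner of 40 tags or more lie mostly under the line, and the 84 with a partner of 13 to 24 tags all lie above it.

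The densest of all were mostly low-fold peaks. Of the 17 peaks with 300 tags per kb or more, 13 had a fold under 5, and their median fold was 2.73. The first in density, on chromosome 17 at 13742971 to 13746681, had 3271 tags (95% interval 3160 to 3385) on 3711 bp, 881 tags per kb, with a fold of 2.73. The next, on chromosome 4 at 118219068 to 118221815, had 687 tags per kb and a fold of 3.39, and the third, on chromosome 2 at 98503597 to 98504582, had 670 tags per kb and a fold of 2.06. Those 3 carried an endogenous peak as well, with summits 13, 71 and 26 bp apart. On chromosome 3 at 5860144 to 5861021 a peak of 590 tags per kb and a fold of 1.89 had no endogenous summit within 69.6 kb. Chromosome 6 held 2 of the 10 densest, at 103598846 to 103599478 with the lowest fold of all tag-dense peaks, 1.48, and at 29697247 to 29699668 with a fold of 2.65. The exceptions among the 10 were chromosome 15 at 91736540 to 91741162, with 537 tags per kb and a fold of 6.9, and chromosome 5 at 26332823 to 26335166, with 386 tags per kb and a fold of 9.21.

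The strongest by fold were a different set, and only 1 of them reached 300 tags per kb. That one, on chromosome 3 at 152148468 to 152150168, had 615 tags on 1701 bp, 362 tags per kb. Its fold of 30.8 was the highest listed. The other 9 of the first 10 had folds of 21.7 to 25.4, 153 to 227 tags per kb and lengths of 1401 to 3860 bp, for example chromosome 6 at 96960401 to 96961994 with 362 tags and a fold of 25.3. None of these 10 overlapped an endogenous peak, where 6.54% of all tag-dense peaks and 1.18% of all autosomal biotin peaks under 5000 bp did. At such shares, 10 peaks are too few to set them apart. Their nearest endogenous summit was a median of 130 kb away, and no such distance is given here for all tag-dense peaks.

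Along the genome the tag-dense peaks were spread over all 19 autosomes. Chromosome 10 had the lowest rate, 0.462 per Mb, and chromosome 12 the highest, 0.850, a ratio of 1.84, where the other peaks under 5000 bp differed by 2.32 times between chromosomes 3 and 11. On chromosome 11, the richest in other peaks with 89.3 per Mb, tag-dense peaks made up 0.929% of peaks under 5000 bp (95% interval 0.758 to 1.13). On chromosome 3, the poorest with 38.4 per Mb, they made up 1.22% (0.965 to 1.53), so these 2 intervals overlapped. The share was highest on chromosomes 14, 12 and 18, with 1.63% (1.32 to 2.00), 1.57% (1.28 to 1.90) and 1.56% (1.22 to 1.97). It was lowest on chromosomes 19 and 10, with 0.739% (0.499 to 1.05) and 0.854% (0.653 to 1.10).

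**Figure D2:**
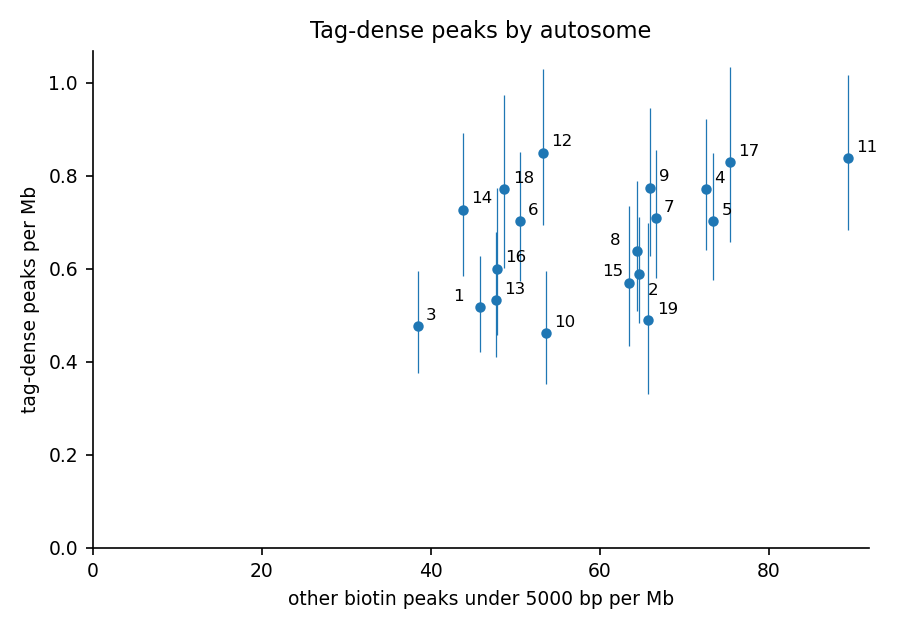
Each point is 1 autosome, by the number of other biotin peaks under 5000 bp per Mb and of tag-dense peaks per Mb, and bars are 95% Poisson intervals. Chromosomes 12, 14 and 18 stand above others of like peak density, and the tag-dense peaks run from 0.462 to 0.850 per Mb.

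Tag-dense peaks lay in poorer surroundings than the rest of the list. A median of 77 other biotin peaks (interquartile range 32 to 137) had a summit within 500 kb of theirs, against 116 (64 to 178) for the other peaks under 5000 bp. Where at most 20 peaks lay that near, 2.28% of peaks under 5000 bp were tag-dense, 234 of them. The share was 2.19% with 21 to 40 such neighbours, 1.31% with 41 to 80, 0.971% with 81 to 150 and 0.626% with over 150. The sparsest class held 14.4% of tag-dense peaks and 6.86% of the other peaks.

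At close range they also stood more alone. The gap to the nearest peak was a median of 5.08 kb (1.16 to 15.5) for tag-dense peaks and 1.58 kb (0.431 to 5.63) for the other peaks. A gap of over 10 kb on both sides was found for 34.7% and 16.3%, and of over 100 kb for 21 tag-dense peaks (1.29%) and 968 others (0.662%). After peaks up to 1 kb apart were merged, 76.9% of tag-dense peaks and 59.5% of the other peaks remained single. Stretches of 20 kb or more took in 21 tag-dense peaks, 1.29%, and 1.14% of the others. Of these 21, 12 came from a single place on chromosome 4, described below, where they span 34.7 kb. A peak of 5000 bp or more had its summit within 10 kb of 28 tag-dense summits (1.73%) and of 3.41% of the others.

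The peaks beside them were like those beside any other peak. Neighbours at a gap of up to 10 kb had a median of 47.3 tags per kb (39.3 to 66.4) and a fold of 4.14 (3.28 to 5.86). Beside other peaks, they had 46.7 tags per kb (39.3 to 63.5) and a fold of 4.14. The next tag-dense peak was a median of 374 kb away (129 to 892), and from other peaks it was 379 kb (148 to 852). Among peaks under 5000 bp, the next one along the chromosome was tag-dense for 37 tag-dense peaks, 2.28% (1.61 to 3.13), and for 1.08% (1.03 to 1.14) of the others.

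One place on chromosome 4 accounted for much of that excess. Between 88418593 and 88453251, 12 consecutive peaks, with no other peak between them, were all tag-dense, whereas elsewhere the longest succession was 2, found 26 times. Their summits were 2925 ± 35.6 bp apart (mean ± SD over 11 spacings, range 2866 to 2991), and the gaps between them were 230 to 464 bp. Lengths were 2592 ± 89.6 bp and the summit stood 1131 ± 43.7 bp from the start (SD over 12 peaks). The 12 tag counts were 458, 451, 442, 434, 446, 409, 405, 469, 442, 446, 434 and 451, in order of position. They had a mean of 441 and an SD of 18.4, given as a description since tags and length chose the peaks. The folds were 7.93 to 10.9, all in the high-fold group.

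**Figure D3:**
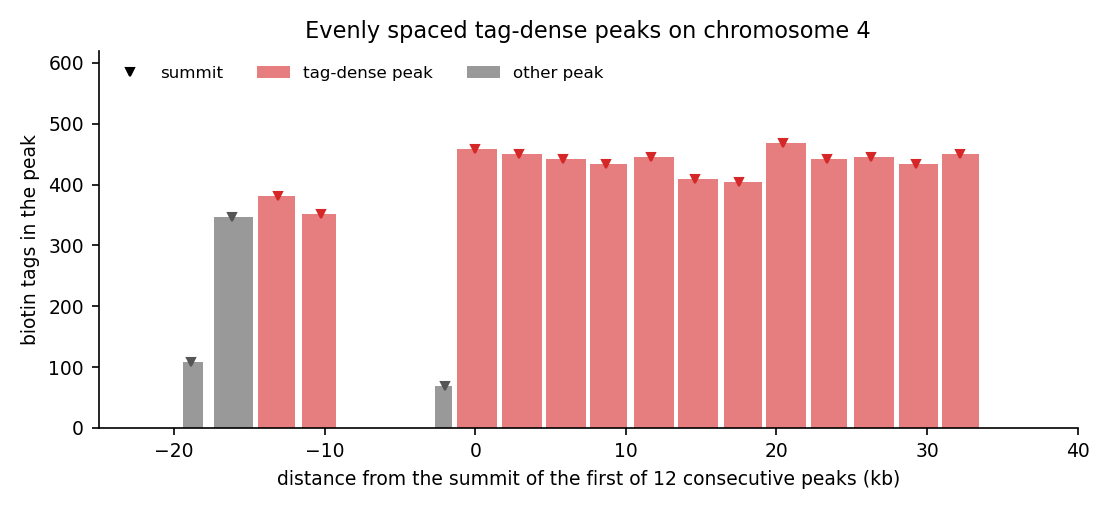
Peaks on a stretch of chromosome 4 are drawn as bars from start to end, by distance in kb from the summit of the first of the 12, with the height giving biotin tags. The 12 tag-dense peaks stand at even steps with 405 to 469 tags, and 3 more peaks of 346 to 381 tags precede them.

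Before the 12 stood 3 peaks of similar length, 2586, 2482 and 2253 bp, with 346, 381 and 351 tags, and the last 2 of these were tag-dense too, while the first, with 133.8 tags per kb, was under the limit. A gap of 6560 bp and a small peak of 68 tags separated them from the 12, and after the 12 the next peak was 60219 bp away. No endogenous summit lay within 103.8 kb of the 12. The window from 88 to 89 Mb thus held 14 tag-dense peaks of 49 peaks under 5000 bp. Without it, the share of tag-dense peaks followed by another was 1.55% (1.01 to 2.29). With a gap of up to 1 kb it was 12 of 200 with the window and 0 of 188 without it, which allows up to 1.94%. No source used here says how tags that match several places were handled.

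Other places held several tag-dense peaks farther apart. Of 2482 autosomal windows of 1 Mb, 1050 held at least 1 and 41 held 4 or more, 198 peaks in all. After chromosome 4, windows on chromosome 18, 37 to 38 Mb, and chromosome 17, 6 to 7 Mb, had 8 each, and windows on chromosome 14, 43 to 44 Mb, and chromosome 12, 22 to 23 Mb, had 6 each, as did those on chromosome 12, 20 to 21 Mb, chromosome 17, 15 to 16 Mb, and chromosome 9, 66 to 67 Mb. On chromosome 12 the stretch from 20 to 23 Mb held 16 of 153 peaks, with a median length of 2279 bp, folds of 6.7 to 18.96 and no endogenous peak on any. On chromosome 14 the stretch from 42 to 44 Mb held 11 of 51 peaks, and 4 of the 11 overlapped an endogenous peak. Over all tag-dense peaks the share with an endogenous peak was 6.54%, at which none of 16 is not unusual. Without these stretches tag-dense peaks made up 1.36% of peaks under 5000 bp on chromosome 12 and 1.45% on chromosome 14.

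The 8 peaks on chromosome 17 were longer, with a median length of 4037 bp, and 366 to 798 tags. In most of them the summit was far from the centre. At 6230540 to 6235438 and 6318282 to 6322550 it stood 3533 and 3370 bp from the start of peaks of 4899 and 4269 bp, and at 6341181 to 6345548 it stood 692 bp from the start of a peak of 4368 bp. On chromosome 18 the 8 peaks had 905 to 1821 bp, a median of 249.5 tags, folds of 7.3 to 13.4 and no endogenous partner, where 6.54% of all tag-dense peaks had one. These 8 were shorter than the median tag-dense peak and had fewer tags, at a usual fold.

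Summits of tag-dense peaks were near the middle and favoured neither side. The median signed distance from the centre was 0.360% of the length, and the median distance without sign was 10.9% (5.31 to 17.6), or 210.5 bp. For the other peaks it was 9.24% (4.13 to 16.4). Within each of 6 length classes the order was the other way. From 1601 to 2000 bp the median was 9.15% for 478 tag-dense peaks and 15.9% for the other peaks, and from 2001 to 2500 bp it was 12.96% and 18.3%. Over 3000 bp the values were close, 17.8% and 18.8%. Weighted to the lengths of the tag-dense peaks, the other peaks had a median of 15.6%, so at like length the tag-dense peaks were the more centred.

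Endogenous Utf1 peaks lay on tag-dense peaks more often than on the other biotin peaks, although most tag-dense peaks had none. Of 1622 tag-dense peaks, 106 overlapped an endogenous peak by at least 1 bp, 6.54% (95% interval 5.38 to 7.85), beside a background of 1.18% over all autosomal biotin peaks under 5000 bp. For the other peaks the share was 1.13% (1.07 to 1.18), so the ratio was 5.81. With summits within 250 bp, 29 tag-dense peaks had a partner, 1.79% (1.20 to 2.56), beside a background of 0.310%, and 0.293% (0.266 to 0.323) of the others did. Other peaks weighted to the lengths of the tag-dense peaks gave 1.03%. The shortest tag-dense peaks, the 49 of up to 1200 bp, had the highest share, 26.5% (14.9 to 41.1), against 1.02% of other peaks of that length. In the 5 longer classes tag-dense peaks had 3.05% to 6.90%. The length classes were not split by fold. The 50 tag-dense peaks with a fold under 5, of which 20 had a partner, had a median length of 1525.5 bp, against 2007.5 bp for all tag-dense peaks.

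The difference held at each local density of biotin peaks, and both shares were highest where biotin peaks were sparse. With at most 20 other biotin peaks within 500 kb, 42 of 234 tag-dense peaks overlapped an endogenous peak, 17.9% (13.3 to 23.5), against 6.41% (5.93 to 6.90) of the others. With 21 to 40, the shares were 10.2% (6.85 to 14.5) and 3.08%. With 41 to 80 they were 4.75% (2.74 to 7.60) and 1.03%, and with 81 to 150 they were 3.28% (1.84 to 5.34) and 0.473%. With over 150 they were 1.82% (0.672 to 3.93) and 0.297% (0.252 to 0.347). Other peaks weighted to the local densities of the tag-dense peaks gave 1.83%, which brought the ratio to 3.56, and weighted by length and local density together 2.04%, a ratio of 3.21.

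**Figure D4:**
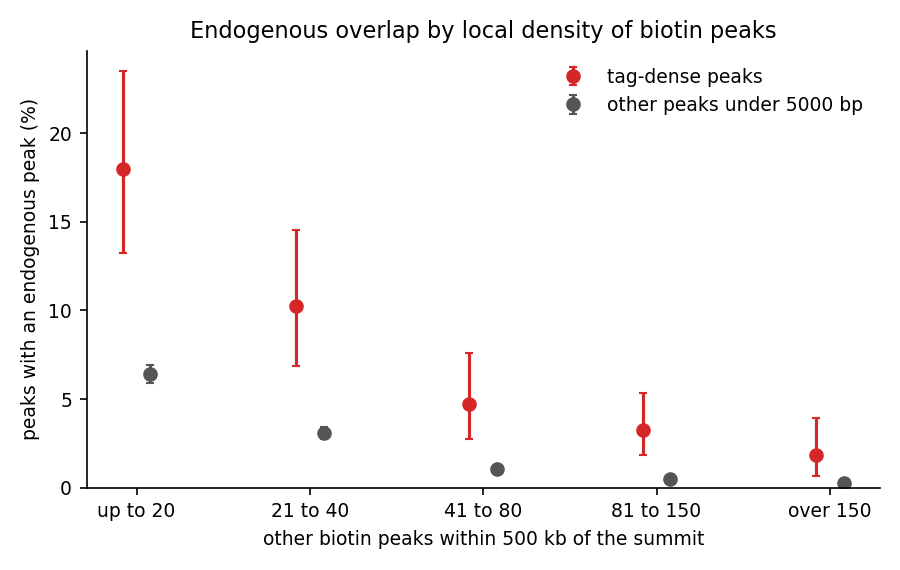
Points give the percent of tag-dense peaks and of other biotin peaks under 5000 bp that overlap an endogenous peak, by the number of other biotin peaks within 500 kb, with 95% Clopper-Pearson intervals. The tag-dense share runs from 17.9% in the sparsest class to 1.82% in the densest and is above that of the other peaks in all 5 classes.

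The share with an endogenous peak also differed by tag density below the limit. It was 0.723% (0.667 to 0.783) for peaks under 50 tags per kb, 1.20% from 50 to 75, 1.76% from 75 to 100 and 3.02% (2.72 to 3.35) from 100 to 150. From 150 to 200 it was 5.82% (4.70 to 7.12), from 200 to 300 it was 10.4% (4.59 to 19.4), and at 300 or more 9 of 17 peaks had one. Each class was above the one before, and the 2 classes between 150 and 300 overlapped in their intervals. The classes were not split by fold. A fold under 5 was listed for 27 of the 94 peaks at 200 or more, and for 13 of the 17 at 300 or more. Of all 50 tag-dense peaks with a fold under 5, 20 had a partner, against 5.47% of those with 5 or more. Whether the share rises above 200 tags per kb at a fold of 5 or more was not tested.

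The endogenous partners of tag-dense peaks fell on either side of a gap in tag count. The 106 tag-dense peaks made 110 pairs, of which 88 had an endogenous peak of 13 to 24 tags and 22 had one of 40 to 1395 tags, with none between. The smallest count in the endogenous list is 13, and 46 of the 110 partners had exactly that. Partners of up to 24 tags are called weak and those of 40 or more strong, by tag count alone. Their listed endogenous folds were alike, with a median of 1.36 (range 0.85 to 2.35) for weak and 1.40 (0.78 to 3.55) for strong partners. Weak partners had their summits at a median of 842 bp (458 to 1085) from the biotin summit, and 12 of 88 were within 250 bp, 13.6% (7.25 to 22.6). The biotin peaks of these pairs had a median of 23.5 other biotin peaks within 500 kb. In 26 of the 88 pairs the endogenous summit was outside the biotin peak. Strong partners sat on the biotin summit, at a median of 46 bp (13 to 203), with 17 of 22 within 250 bp, 77.3% (54.6 to 92.2). On the other biotin peaks the corresponding shares were 25.1% of 1560 pairs and 34.2% of 38 pairs, and a further 81 pairs of 25 to 39 tags had 29.6%, so the gap between weak and strong was not found there. A pair needs an overlap, so these distances also depend on peak length, and they were not weighted to it. Tag-dense peaks had a median length of 1921.5 bp in weak and 1400 bp in strong pairs. All other peaks under 5000 bp had a median of 1074 bp.

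The kind of partner went with the biotin fold. Of the 50 tag-dense peaks with a fold under 5, 20 had a partner, 40% (26.4 to 54.8), and all 20 were strong. Of the 1572 with a fold of 5 or more, 86 had a partner, 5.47% (4.40 to 6.71), 84 of them weak and 2 strong. By fold the share was 3.25% (4 of 123) at 5 to 7, 8.73% (33 of 378) at 7 to 9, 5.87% at 9 to 11, 5.45% at 11 to 13 and 1.14% (3 of 264) at 13 or more, with no steady order. Among other peaks, those with a fold under 5 had a partner in 0.829% of cases and a strong one in 0.032%, 30 of 94000. Those with a fold of 5 or more had a partner in 1.66% (1.55 to 1.77), under the interval of the tag-dense peaks with a fold of 5 or more. Above that floor the folds were not matched. The median fold of all tag-dense peaks was 10.1, and the 95th percentile of all other peaks was 9.5. For tag-dense peaks with a fold of 13 or more the interval, 0.235 to 3.28, included 1.66%. Whether the difference remains at like fold was not tested. The boundaries of 5 in fold and of 24 and 40 tags were chosen after the values were seen.

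**Figure D5:**
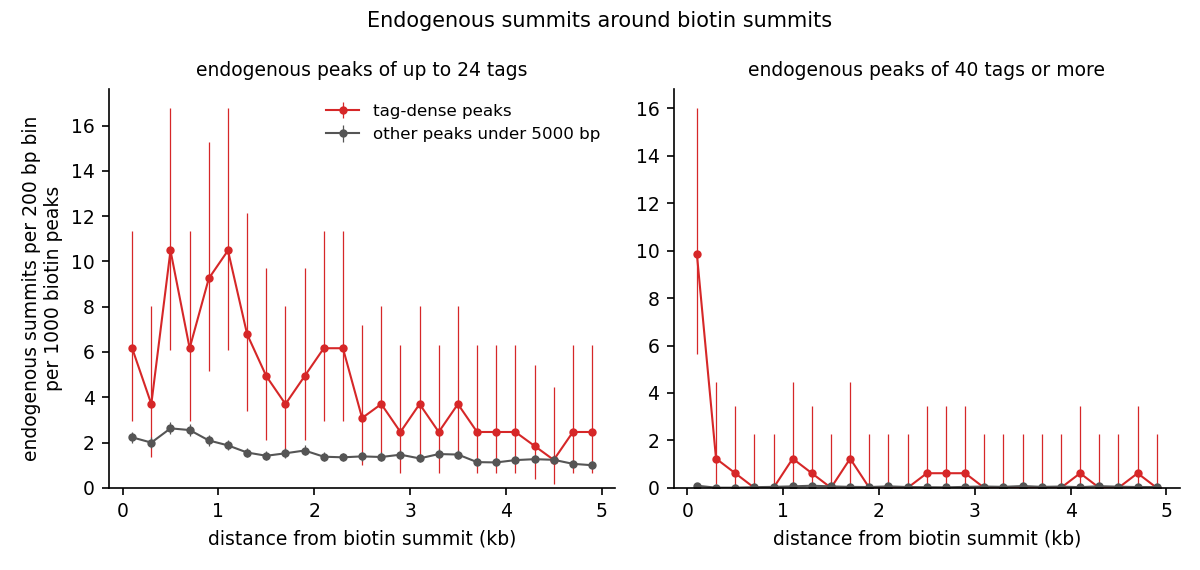
Endogenous summits per 200 bp bin and per 1000 biotin peaks are plotted by distance from the biotin summit in kb, to either side together, for endogenous peaks of up to 24 tags (left) and of 40 tags or more (right), with 95% Poisson intervals. Strong endogenous summits crowd in the first bin of the tag-dense peaks, with 9.86, and weak ones spread out to beyond 2 kb.

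Weak endogenous summits were denser around tag-dense summits than around other biotin summits, well beyond the peaks themselves. These profiles were not weighted to local density, although tag-dense peaks lay in sparser surroundings, where endogenous overlap was more frequent in both groups. Such weighting raised the overlap share of the other peaks from 1.13% to 1.83%. Whether the difference in the profiles remains at like local density was not tested. Around tag-dense summits, weak endogenous summits per 200 bp and per 1000 biotin peaks numbered 6.17 (2.96 to 11.3) within 200 bp and 3.70 (1.36 to 8.05) at 200 to 400 bp. They numbered 8.63 (6.22 to 11.7) at 400 to 1000 bp, 6.17 (4.58 to 8.13) at 1 to 2 kb and 3.64 (2.77 to 4.69) at 2 to 4 kb. From 4 to 10 kb there were still 1.42 (1.10 to 1.79). Around the other peaks the values were 2.23, 2.00, 2.42, 1.60, 1.35 and 0.938 (0.910 to 0.967), and at 200 to 400 bp the value lay within the interval of the tag-dense peaks. Strong endogenous summits were concentrated within 200 bp of the tag-dense summit, with 9.86 (5.64 to 16.0), against 0.226 (0.113 to 0.404) at 4 to 10 kb. Weak endogenous summits, most of them on no tag-dense peak, were thus spread over kilobases, and strong ones stood in a narrow spike.

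Among the 10 tag-dense peaks with the highest endogenous fold and summits within 250 bp, 7 had a strong partner. The first, on chromosome 6 at 136950953 to 136952131, was the only one of all 22 with a strong partner whose biotin fold exceeded 10: it had 220 biotin tags and a biotin fold of 11.7, and 60 endogenous tags and an endogenous fold of 3.55, with summits 10 bp apart. The next 4 all had low biotin folds. On chromosome 2 the peak at 98503597 held 1333 endogenous tags with an endogenous fold of 2.39, and on chromosome 18 the peak at 40467481 to 40468370 held 269 with 2.36, its summit 1 bp from the biotin summit. Chromosome 6 at 103598846 had an endogenous fold of 2.29, and chromosome 17 at 13498630 to 13499695 one of 2.2. The 3 weak partners in this group had 13 to 21 tags, on biotin peaks with folds of 10.2 to 16.2. Their biotin peaks began at 133304412 on chromosome 3, at 85487192 on chromosome 11 and at 5433497 on chromosome 10.

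Seen from the endogenous list, 110 autosomal peaks, 1.14% (0.941 to 1.38), lay on a tag-dense peak, 31.8 per Mb of covered sequence (26.1 to 38.3). Other biotin peaks under 5000 bp carried 8.57 per Mb (8.16 to 8.99), and autosomal sequence outside biotin peaks 3.45 per Mb (3.38 to 3.53). Endogenous peaks on tag-dense peaks had a median of 14 tags, as did those on other biotin peaks under 5000 bp and on none, while the 32 on biotin peaks of 5000 bp or more had a median of 23.5. They had a median fold of 1.36 (1.17 to 1.57), against 1.57 (1.37 to 1.76) for those on no biotin peak. Of those on tag-dense peaks 16 had over 100 tags, 14.5% (8.55 to 22.5), compared with 0.362% (0.133 to 0.787) on other biotin peaks under 5000 bp and 1.59% (1.32 to 1.89) on none. On biotin peaks of 5000 bp or more it was 4 of 32, 12.5% (3.51 to 29.0), so that the 2 intervals overlapped. Endogenous peaks on tag-dense peaks were thus frequent for the sequence covered and for the most part weak, with a minority of very many tags.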

How the data were processed

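Each deposited file is a peak list of 1 library, not of pooled samples. Coordinates are on build mm9, and the tools listed are BWA 0.5.7 and R 2.15.2, per the submitters' processing notes, which say nothing here of what each did. No source used here names the peak caller, its settings or its control. Tags are deposited as whole counts per peak with no scaling to library size. The deposited strength is 10 times the −log10 of a p-value and is listed as exactly 3100 for 438 tag-dense peaks, with a highest value of 3233.06. The deposited fold is a linear ratio. False discovery rates are written in percent, per the file headers. They were at most 0.50% in tag-dense peaks and reached 9.38% in their endogenous partners. Of those 110 partners, 8 had a listed endogenous fold under 1. All are the authors' values for a peak.

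From these, tag density was computed as tags per kb of length, with no other filter. Summits were placed by their listed distance from the start. Chromosome lengths were taken as the largest listed end. Overlap needed at least 1 bp and was checked with bedtools 2.31.1, which found the same 106 peaks. Overlap, nearest summits and local counts were tested on simulated peaks. Regions named by rule were the 10 densest, the 10 highest in fold, the 10 with summits within 250 bp and the highest endogenous fold, the longest successions, the 5 fullest windows (of 5 tied at 6 peaks, the 2 named first in the text were taken by fewest peaks in all), and the 3 peaks on either side of the limit. The regions and the lists were chosen with earlier results of these data known. Other settings for density, length, sharing, classes and windows were tried. Positions relative to genes and sequences were not analysed here, since the tables at hand use another build, GRCm38.p6. Computations ran in Python 3.11.15 with scipy 1.17.1, pandas 2.3.3 and numpy 2.4.6, and plots were drawn with matplotlib 3.10.9.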

Additional observations from a re-analysis of the deposited data

Results flagged for a closer look

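Peaks of 150 tags per kb or more were also found outside the regions described. Chromosome X held 51 of that density among 2534 peaks under 5000 bp, 2.01% (95% interval 1.502 to 2.64), with a median fold of 10.1, and 6 of them overlapped an endogenous peak. Unplaced sequence held 6 among 523, 1.15% (0.422 to 2.48), 2 of them with an endogenous peak. Among the 1680 autosomal peaks of 5000 bp or more, 25 reached that density, 1.49% (0.965 to 2.19), the densest with 1572 tags per kb, and 3 had an endogenous peak. The share among autosomal peaks under 5000 bp was 1.10%. The interval of chromosome X lay above that share, and those of unplaced sequence and of the longer autosomal peaks included it. Chromosome Y had 1 of 38 peaks, 2.63% (0.067 to 13.8), too few to compare. An endogenous peak overlapped 6.54% of the autosomal tag-dense peaks and 1.18% of all autosomal biotin peaks under 5000 bp. The overlap share of all peaks in these other places is not given here, so the overlap counts of 6, 2 and 3 cannot be set against it.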

How the results depend on the processing

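The tag-dense share with an endogenous peak was above that of the other peaks in 16 of 16 settings, with ratios of 3.21 to 44.9. Of 75 values under other settings of 12 results, 24 stayed within their counting interval. The settings with length and local density together, with a fold of at least 5, and without chromosome 4 from 88 to 89 Mb were chosen after seeing the data. Limits of 100, 200 and 300 tags per kb put the tag-dense share of peaks at 8.95%, 0.0636% and 0.0115%, the tag-dense overlap at 3.46%, 18.1% and 52.9%, and the ratio at 3.59, 15.4 and 44.9. At the limits of 200 and 300, 27 of 94 and 13 of 17 tag-dense peaks had a fold under 5. With limits of 100, 200 and 300 the next peak was tag-dense for 11.7%, 0% and 0% of tag-dense peaks. For others it was 8.68%, 0.0636% and 0.0115%. The overlap of others was 0.961% at 100. At 300 chromosome 3 held 11.8% of tag-dense peaks instead of 4.69%. A length limit of 2000 bp gave a tag-dense share of 0.633%. Sharing over at least 50% of the shorter peak gave 5.36% and 0.734%, a ratio of 7.31, summits within 250 bp gave 1.79% and 0.293%, summits within 500 bp gave 2.84% and 0.593%, a ratio of 4.78, and gaps of up to 1 kb gave 8.51% and 1.93%, a ratio of 4.40. Without endogenous peaks of 15 tags or fewer the shares were 2.34% and 0.377%. A false discovery rate of at most 5% gave 1.07% for the others, a strength of at least 100 gave 1.35%, and a fold of at least 5 gave 1.66%, a ratio of 3.30. Weighting the others gave 1.03% by length, 1.83% by local density, a ratio of 3.56, and 2.04% by both, a ratio of 3.21. The next peak was tag-dense for 6.00% and 0.596% with a gap of up to 1 kb, and for 0.752% of others with up to 10 kb. Without chromosome 4 from 88 to 89 Mb it was 1.55% of tag-dense peaks, and 0% with a gap of up to 1 kb. Peaks per Mb around tag-dense and other peaks were 70 and 140 in windows of 100 kb in full width, and 68 and 91.6 in windows of 5 Mb. The summit offset of the others was 15.6% at like length and 10.5% at a strength of at least 100. The cause of these shifts was not tested. No paired analysis was possible because each group is 1 library with no replicate number, so no replicate could be left out. Depth is unknown, tags can be copies of one molecule, and peaks side by side can share fragments, so the intervals are too narrow to stand for the spread between experiments.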
